A study of Homo sapiens with 24 samples.

Results

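The genes that carry a cell from G1 into S phase were followed here by name: the D cyclins CCND1, CCND2 and CCND3, the E cyclins CCNE1 and CCNE2, their kinases CDK4, CDK6 and CDK2, the phosphatase CDC25A and the inhibitor CDKN1B. They are 10 of the 26249 genes measured, and all 10 passed the filter described below. They were measured in the human cell lines H929 and MM1S, both long established from multiple myeloma and grown here in RPMI with serum. The groups were, in each line and at each time, YKL-5-124 (YKL below), a code-named compound that the series title gives as a CDK7 inhibitor, and its vehicle DMSO. The times were 6 h and 24 h, and each of the 8 groups held 3 libraries, 24 in all. The labels carry 83 nM for H929 and 98 nM for MM1S, on the DMSO samples as well, so that line and dose cannot be told apart. Each line stands for a single myeloma, and no label tells whether the 3 libraries of a group are separate cultures. The p-values therefore speak of the spread among these libraries alone, and that spread may be technical.

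D cyclins bind CDK4 and CDK6 and begin the phosphorylation of the retinoblastoma protein, which frees E2F factors to switch on S phase genes. Among the E2F targets are the E cyclins and CDC25A. E cyclins bind CDK2, CDC25A removes inhibitory phosphates from CDK2, and CDKN1B (p27) binds and inhibits the CDK2 complexes. CDK7, with cyclin H and MNAT1, phosphorylates the activation segment of these CDKs and also the tail of RNA polymerase II, so it acts on the pathway both through the kinases and through transcription. Multiple myelomas are known for raised expression of a D cyclin gene.

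The authors deposited FPKM, a level per gene length and library, from libraries that read the 3′ ends of transcripts. Reads could not be counted from it, so the depth is unknown and counting error could not be set. The median of the spike-in transcripts (the 50 that averaged 10 FPKM or more) hardly differed over the libraries, so that the deposited scale keeps differences in the RNA of whole libraries. Single spike-ins scattered about it, with an SD of 0.155 to 0.964 on the log2 scale. That SD was largest in MM1S YKL 6 h replicate 2 (0.964) and MM1S DMSO 24 h replicate 1 (0.58). Relative to DMSO, the YKL libraries of H929 had a scale of the median gene of 0.873-fold at 6 h and 0.558-fold at 24 h (exact permutation p = 0.5 and 0.1). The scale in MM1S was 0.722-fold at 6 h and 0.826-fold at 24 h (exact permutation p = 0.1 and 0.8, where 0.1 is the smallest possible). Changes are therefore given on the deposited scale, which is the main one. Beside most of them stands a scale where the median gene was made level in every library (rescaled). The median gene means the median of ratios over the 6014 genes whose geometric mean reached 5 FPKM. It differs from the median of all genes tested, which need not be level after rescaling. On the deposited scale fewer cells and less RNA per cell cannot be told apart. Changes are log2 differences of FPKM + 1 with standard errors, from limma over 12418 genes, those that reached 1 FPKM in 3 libraries or more. A gene is called at a Benjamini-Hochberg adjusted p under 0.05 over those genes. The plasma cell markers (8 of 8 past the filter) summed to 1079 to 8433 FPKM per library. FGFR3 and WHSC1, markers of H929, summed to 92.6 to 265 FPKM in H929 libraries and to 4.25 to 24.8 FPKM in MM1S libraries. As deposited, MAF, a marker of MM1S, was lower in H929 than in MM1S with DMSO at 6 h (-1.05) and not called at 24 h (0.04). ITGB7, another, was higher in H929 at 24 h as deposited (1.29). The median gene also stood 3.47-fold higher in H929 with DMSO at 24 h, so these 24 h differences hold that scale. Of markers of other cells, 5 T cell genes summed to 0.591 to 4.43 FPKM per library. The 6 monocyte genes summed to 7.26 to 36.3 FPKM in H929 and to 0.646 to 5.41 FPKM in MM1S, and 6 epithelial or fibroblast genes to 8.59 to 33.9 FPKM in H929 and to 0.713 to 1.88 FPKM in MM1S. In H929 a single gene made up most of each sum, S100A9 (6.27 to 34.0 FPKM) and KRT18 (7.43 to 33.2 FPKM). The other monocyte genes reached at most 3.09 FPKM there (S100A8), and the other epithelial or fibroblast genes at most 1.83 FPKM (COL1A1). The part of these markers in the differences between lines was not tested.

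Some marker genes were also called with YKL. Of the 18 that passed the filter, 1 was called lower in H929 at 6 h as deposited, XBP1 (-1.35), a transcription factor of plasma cells. By 24 h in that line XBP1 (-1.13), MZB1 (-1.22), SLAMF7 (-1.02), ITGB7 (-0.82) and the epithelial KRT18 (-0.84) were called lower and FGFR3 (1.48) and the monocyte gene S100A8 (1.30) higher. Of all genes in H929 1.16% were lower and 1.03% higher at 6 h, and 35.4% and 2.67% at 24 h. In MM1S WHSC1 was called lower at 6 h (-0.82) and at 24 h (-1.06), where MZB1 was also lower (-1.12) and MAF higher (0.85). Of all genes in MM1S 10.0% were lower and 0.926% higher at 6 h, and 6.77% and 0.684% at 24 h. Rescaled, the calls in H929 were 3 higher and 1 lower after 6 h, then 7 higher and 1 lower after 24 h. Those in MM1S were 2 higher and 1 lower after 6 h, then 8 higher and 2 lower after 24 h. Among the rescaled marker calls, XBP1 in MM1S at 24 h was higher (0.79). SDC1, the plasma cell surface marker, was higher at 24 h in both lines (1.07 in each). The part of these changes in those of the 10 genes was not tested.

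**Figure D1:**
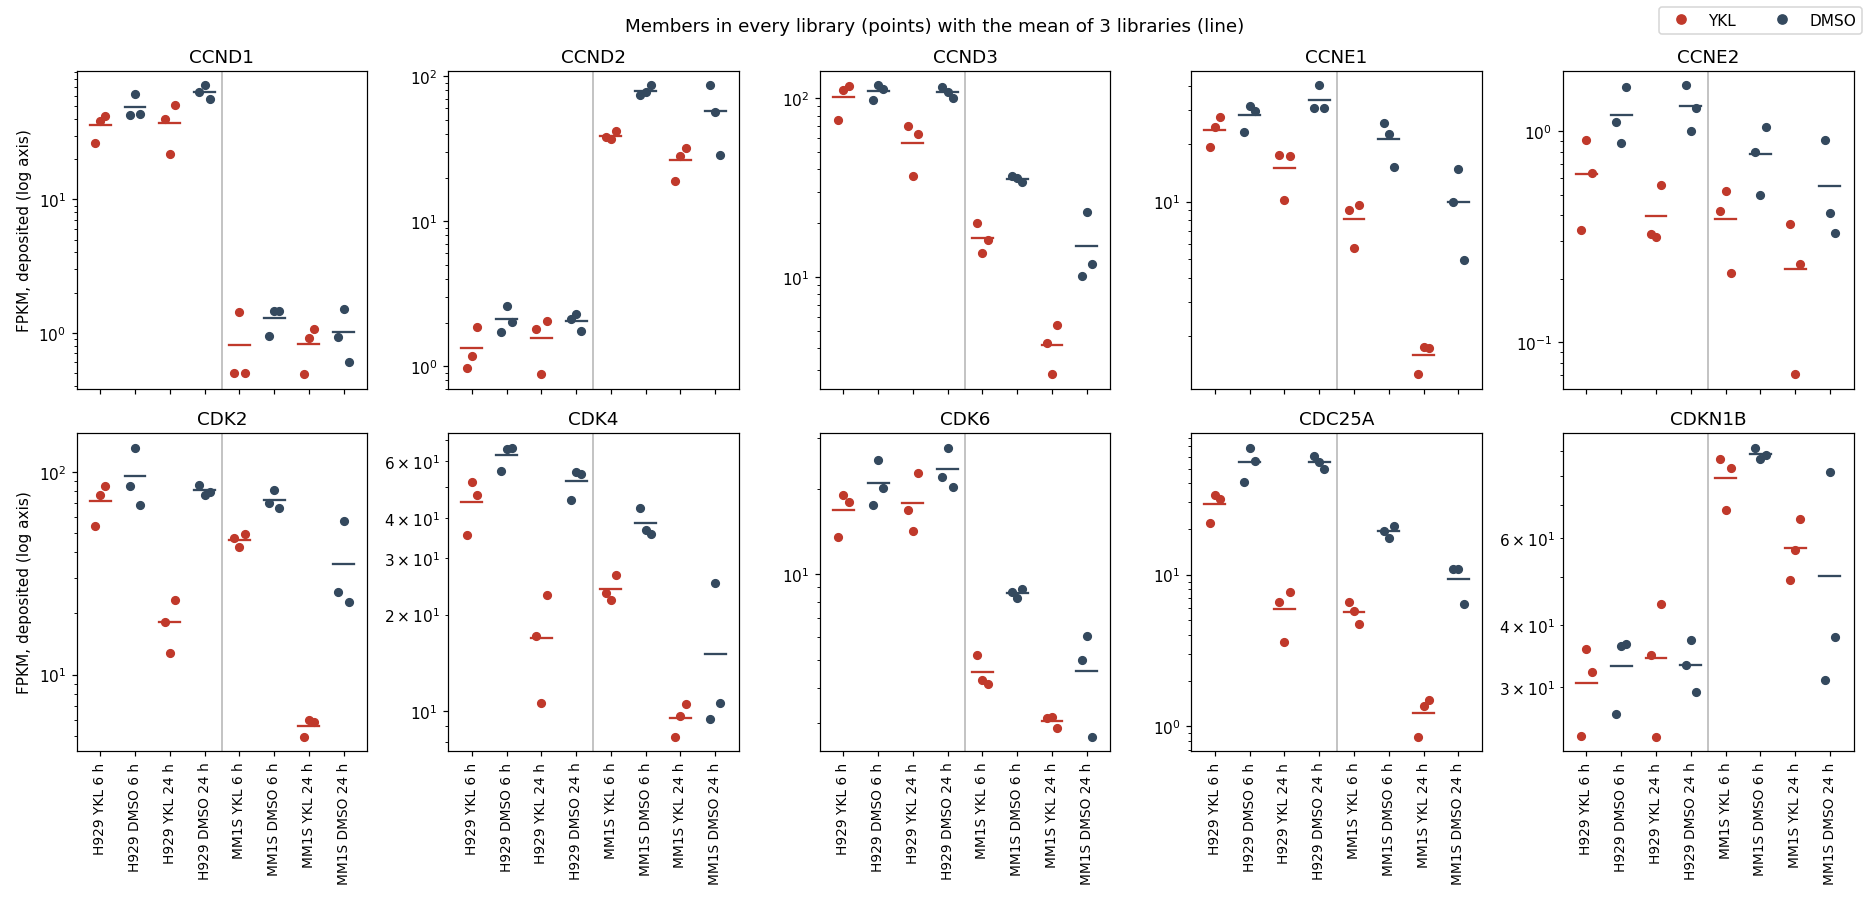
FPKM as deposited (log axis) of the 10 genes in all 24 libraries, by group, with YKL in red and DMSO in dark blue; points are libraries and lines the means of 3. CDC25A and CDK2 lie far below DMSO in the 24 h YKL groups of both lines, CCND1 is high in H929 and CCND2 in MM1S, and CDKN1B in H929 stays between 23.8 and 44.1 FPKM.

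By 24 h of YKL the phosphatase gene CDC25A and the kinase gene CDK2 had fallen in both lines on both scales. CDC25A was also called lower at 6 h, in MM1S on both scales and in H929 only after rescaling. CCNE1 and CCND3 fell in both lines at 24 h as deposited, and after rescaling in MM1S. The inhibitor CDKN1B was not called lower in any comparison of YKL with DMSO. In H929 at 6 h none of the 10 genes was called on the deposited scale (0 of 10 by limma, 2 at an unadjusted p under 0.05), where 1.16% of all genes were called lower and 1.03% higher. The changes of the 9 members other than CDC25A were -0.49 to -0.12. After rescaling CDC25A was the 1 called lower, against a background of 4.19% lower and 5.10% higher. In H929 at 24 h, 7 were called lower and 0 higher as deposited, where 35.4% of all genes were called lower and 2.67% higher. The 7 include CCNE2, which passed the filter only through DMSO libraries, and this limits the count. After rescaling 3 were called lower (CDC25A, CDK2 and CDK4) and 2 higher (CDKN1B and CDK6), where 12.5% of all genes were lower and 20.8% higher. The median change of the 10 genes as deposited was -0.39 at 6 h and -0.90 at 24 h, where the median of all genes was -0.06 and -0.46. After rescaling it was -0.20 and -0.23, beside 0.07 and 0.13 for all genes.

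In MM1S some members were called lower at 6 h on both scales. No member's 6 h response differed between the lines by limma on either scale, as given below. As deposited, 5 of 10 were called lower at 6 h (CDC25A, CCNE1, CCND3, CCND2 and CDK6) and 0 higher, beside 10.0% of all genes lower and 0.926% higher. After rescaling 3 were called lower (CDC25A, CCNE1 and CCND3) and 0 higher, beside 7.22% and 8.25%. At 24 h, 5 were called lower as deposited (CDK2, CDC25A, CCNE1, CCND3 and CCND2) and 0 higher, where 6.77% of all genes were lower and 0.684% higher. After rescaling those 5 were called lower and CDKN1B higher, where 13.3% of all genes were lower and 14.4% higher. The median of the 10 genes as deposited was -0.73 at 6 h and -0.73 at 24 h, where the median of all genes was -0.29 and -0.12. After rescaling it was -0.30 and -0.59, beside 0.05 at both times for all genes. The MM1S DMSO 24 h libraries spread widely on the deposited scale, with factors of the median gene of 0.44, 0.799 and 0.361. Without DMSO replicate 1 or YKL replicate 2 (the library whose spike-ins had an SD of 0.964 on the log2 scale), 1 of the 5 deposited calls at 6 h was left, CDC25A.

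**Figure D2:**
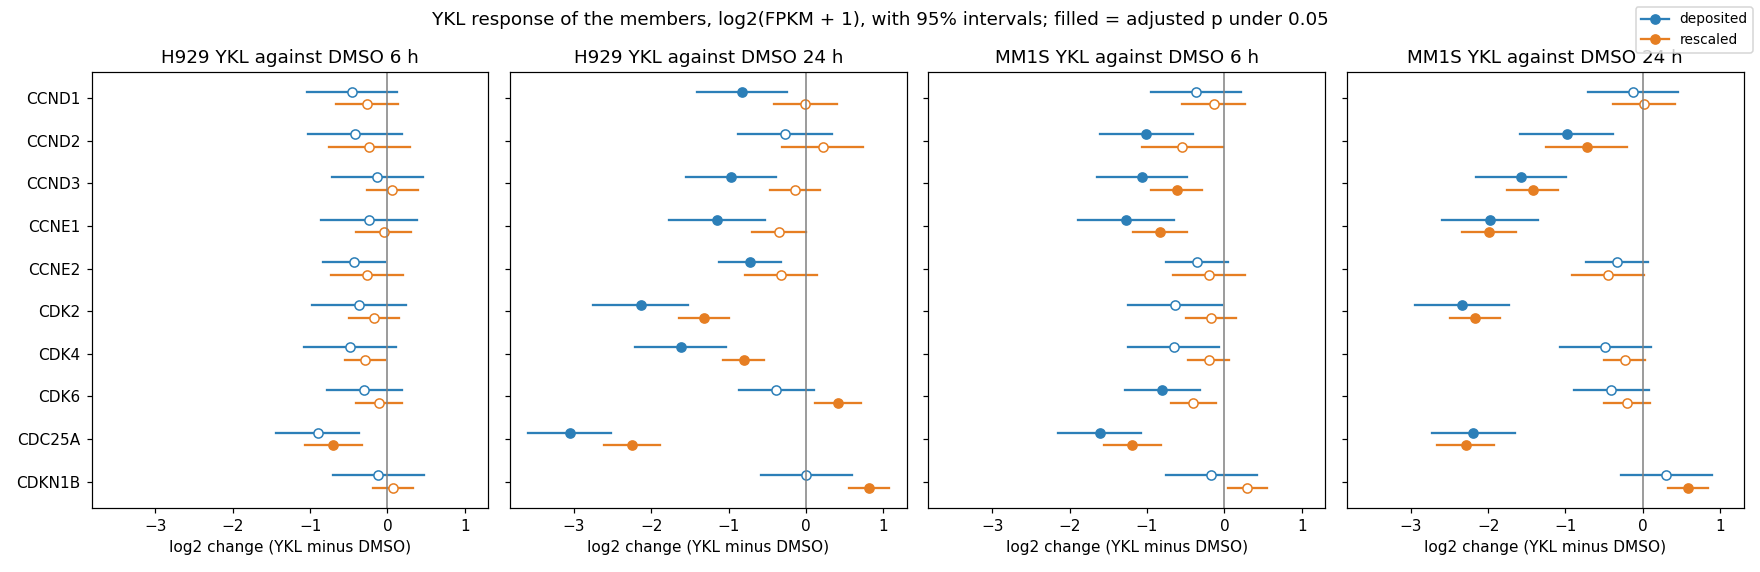
Log2 change of FPKM + 1, YKL minus DMSO, of the 10 genes in 4 panels (each line at 6 h and at 24 h), on the deposited (blue) and rescaled (orange) scale; bars are 95% intervals and filled points have an adjusted p under 0.05. At 24 h CDC25A and CDK2 are filled and below 0 in both lines on both scales, and CDKN1B is filled and above 0 only after rescaling.

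CDC25A, the phosphatase that activates CDK2, was lower in every YKL library than in every DMSO library of the same line and time. In H929 at 6 h it stood at 21.9, 33.7 and 31.4 FPKM with YKL, against 40.9, 68.9 and 56.4 FPKM with DMSO. The change was -0.90 ± 0.26 (limma, adjusted p = 0.0666), not called as deposited, and -0.70 ± 0.18 rescaled (adjusted p = 0.0159), called. As deposited it was called without DMSO replicate 1 (-1.10, adjusted p = 0.0467). Rescaled, the call was lost without DMSO replicate 2 (-0.60, adjusted p = 0.0964), YKL replicate 1 (-0.67, 0.0572) or YKL replicate 3 (-0.69, 0.0535).

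By 24 h CDC25A in H929 was at 6.59, 3.59 and 7.70 FPKM with YKL, against 60.4, 55.0 and 49.4 FPKM with DMSO. The YKL mean was 10.8% of the DMSO mean as deposited and 18.5% after rescaling. It fell by 3.05 ± 0.26 as deposited (adjusted p = 3.77e-08) and by 2.25 ± 0.18 rescaled (adjusted p = 1.17e-08). In MM1S the gene stood at 6.61, 5.75 and 4.70 FPKM with YKL at 6 h, against 19.5, 17.5 and 21.0 FPKM with DMSO. At 24 h MM1S had 0.855, 1.36 and 1.48 FPKM with YKL, against 10.8, 10.8 and 6.41 FPKM with DMSO. The groups did not overlap at either time. MM1S fell by 1.61 ± 0.26 at 6 h (adjusted p = 0.000546) and by 2.19 ± 0.26 at 24 h (adjusted p = 8.61e-06) as deposited. Rescaled it fell by 1.19 ± 0.18 (adjusted p = 0.000139) and by 2.29 ± 0.18 (adjusted p = 8.30e-09). The calls in MM1S and in H929 at 24 h held on both scales without any 1 library.

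CDK2 fell late. In H929 at 24 h it stood at 18.1, 12.8 and 23.4 FPKM with YKL, against 86.1, 77.0 and 79.5 FPKM with DMSO. In MM1S at 24 h it was at 4.95, 6.00 and 5.86 FPKM with YKL, against 25.5, 57.2 and 22.8 FPKM with DMSO. No YKL library reached the lowest DMSO library in either line. The fall was 2.14 ± 0.29 in H929 (limma, adjusted p = 1.26e-05) and 2.34 ± 0.29 in MM1S (adjusted p = 1.84e-05) as deposited, and the rescaled changes were -1.31 ± 0.15 (adjusted p = 1.96e-06) and -2.17 ± 0.15 (adjusted p = 2.83e-09). Both calls held on either scale without any 1 library. At 6 h CDK2 was not called in the main fit on either scale. The YKL mean was then 75.9% of DMSO in H929 and 63.7% in MM1S as deposited, with changes of -0.36 ± 0.29 and -0.64 ± 0.29 (adjusted p = 0.629 and 0.165) and rescaled changes of -0.17 ± 0.15 and -0.18 ± 0.15. As deposited the 6 h groups were apart in MM1S, at 42.4 to 49.2 FPKM with YKL and 66.1 to 81.4 FPKM with DMSO. They overlapped in H929, and in both lines after rescaling. In a limma fit of only the MM1S 6 h groups the changes of CDK2 (-0.64) and CDK4 (-0.66) were called (adjusted p = 0.0139 and 0.016).

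CCNE1, the cyclin E1 partner of CDK2, stood at 9.09, 5.76 and 9.59 FPKM in MM1S with YKL at 6 h, against 25.7, 22.5 and 15.1 FPKM with DMSO. At 24 h it was at 1.26, 1.75 and 1.72 FPKM with YKL, against 9.94, 14.8 and 4.97 FPKM with DMSO. It fell in MM1S by 1.27 ± 0.30 at 6 h (adjusted p = 0.0101) and by 1.98 ± 0.30 at 24 h (adjusted p = 0.000132) as deposited. Rescaled, it fell by 0.83 ± 0.17 (adjusted p = 0.00221) and by 1.99 ± 0.17 (adjusted p = 2.95e-08). The deposited 6 h call was lost without DMSO replicate 1 (-1.11, adjusted p = 0.0617) or YKL replicate 2 (-1.06, adjusted p = 0.0608), and the rescaled one was kept without any 1 library. In H929 at 24 h CCNE1 was at 17.5, 10.1 and 17.3 FPKM with YKL, against 30.6, 40.4 and 30.9 FPKM with DMSO. It fell there by 1.15 ± 0.30 as deposited (adjusted p = 0.00454), but the rescaled change was -0.35 ± 0.17 (adjusted p = 0.122) and was not called. In H929 at 6 h the change was -0.24 ± 0.30 as deposited and -0.05 ± 0.17 rescaled.

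CCNE2, cyclin E2, was low throughout, at 0.0703 to 1.65 FPKM, so that adding 1 FPKM shrinks its changes. It reached 1 FPKM in DMSO libraries alone and passed the filter only through them. This limits what a call lower with YKL can show. In H929 at 24 h it stood at 0.325, 0.315 and 0.553 FPKM with YKL, against 1.65, 1.00 and 1.28 FPKM with DMSO. It fell by 0.72 ± 0.19 as deposited (adjusted p = 0.00559), with a rescaled change of -0.32 ± 0.22 (adjusted p = 0.298). It was not called in the main fit in the other comparisons of YKL with DMSO. Rescaled, CCNE2 in MM1S at 24 h changed by -0.45 ± 0.22 (adjusted p = 0.141) and was called without DMSO replicate 2 (-0.68, adjusted p = 0.0332).

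The D cyclins divided by line and by scale. CCND3 was at 19.9, 13.6 and 16.1 FPKM in MM1S with YKL at 6 h, against 36.6, 35.8 and 33.9 FPKM with DMSO. At 24 h it was at 4.28, 2.85 and 5.38 FPKM with YKL, against 10.1, 23.0 and 11.8 FPKM with DMSO. The groups did not overlap at either time. In MM1S it fell by 1.07 ± 0.28 at 6 h (adjusted p = 0.0182) and by 1.57 ± 0.28 at 24 h (adjusted p = 0.000798) as deposited, and by 0.62 ± 0.16 (adjusted p = 0.0114) and 1.43 ± 0.16 (adjusted p = 1.07e-06) rescaled. The deposited 6 h call was lost without DMSO replicate 1 (-1.04, adjusted p = 0.0679) or 2 (-1.06, 0.0557) and without YKL replicate 2 (-0.94, 0.0836) or 3 (-1.06, 0.0635), and the rescaled one without YKL replicate 2 (-0.53, 0.0568). In H929 at 24 h CCND3 was at 69.8, 36.8 and 62.9 FPKM with YKL, against 115, 108 and 100 FPKM with DMSO. Its change there was -0.97 ± 0.28 as deposited (adjusted p = 0.00949; without YKL replicate 2 -0.69, adjusted p = 0.0819) and -0.14 ± 0.16 rescaled (adjusted p = 0.548).

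CCND2, the D cyclin far higher in MM1S than in H929, was at 38.4, 37.1 and 41.6 FPKM in MM1S with YKL at 6 h, against 74.3, 77.8 and 86.6 FPKM with DMSO. At 24 h it was at 19.0, 28.2 and 31.8 FPKM with YKL, against 86.6, 56.4 and 28.6 FPKM with DMSO. The 6 h groups were apart and the 24 h groups overlapped. The change was -1.01 ± 0.29 at 6 h (limma, adjusted p = 0.0297) and -0.98 ± 0.29 at 24 h (adjusted p = 0.0401) as deposited. Leaving out any 1 of the 6 libraries ended the 6 h call (adjusted p = 0.0655 to 0.0895). The 24 h call ended without DMSO replicate 1 (-0.62, 0.253) or 2 (-0.93, 0.102) or YKL replicate 1 (-0.78, 0.23) or 2 (-1.05, 0.0827). Rescaled, CCND2 changed by -0.55 ± 0.25 at 6 h (adjusted p = 0.153) and by -0.73 ± 0.25 at 24 h (adjusted p = 0.0361), and the 24 h call was lost without DMSO replicate 1 (-0.27, 0.233) or YKL replicate 1 (-0.56, 0.161) or 2 (-0.79, 0.0523). In H929 it was at 0.88 to 2.61 FPKM and was not called.

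CCND1, the D cyclin far higher in H929 than in MM1S, was at 40.3, 22.0 and 50.6 FPKM in H929 with YKL at 24 h, against 64.0, 71.7 and 57.0 FPKM with DMSO. The groups did not overlap, and YKL replicate 2 was the lowest, as it was for all 10 members. The factor of the median gene was 0.664 in that library, against 1.07 and 1.29 in YKL replicates 1 and 3. The change was -0.83 ± 0.28 as deposited (adjusted p = 0.0243) and -0.01 ± 0.19 rescaled (adjusted p = 0.988). The deposited call ended without DMSO replicate 1 (-0.83, 0.0557) or 2 (-0.75, 0.0889) or YKL replicate 2 (-0.49, 0.203). CCND1 was not called at 6 h in H929 (-0.46 ± 0.28, adjusted p = 0.477; rescaled -0.26 ± 0.19, adjusted p = 0.457) or at either time in MM1S, where it was at 0.488 to 1.51 FPKM.

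The D cyclin kinases CDK4 and CDK6 moved unequally in H929. CDK4 was at 17.2, 10.6 and 23.0 FPKM with YKL at 24 h, against 45.6, 55.7 and 54.6 FPKM with DMSO, with no overlap. It fell by 1.62 ± 0.29 as deposited (adjusted p = 0.000161) and by 0.81 ± 0.13 rescaled (adjusted p = 5.02e-05). CDK6 was at 16.8, 14.2 and 22.6 FPKM with YKL at 24 h, against 22.0, 27.9 and 20.2 FPKM with DMSO, and the groups overlapped. Its change was -0.38 ± 0.23 as deposited (adjusted p = 0.21) and 0.41 ± 0.14 rescaled (adjusted p = 0.0294), so that the direction turned with the scale. The rescaled CDK6 call ended without DMSO replicate 1 (0.39, 0.0792) or 3 (0.37, 0.1) or YKL replicate 2 (0.30, 0.16) or 3 (0.43, 0.0517), while the CDK4 calls held on both scales without any 1 library.

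In MM1S CDK6 was at 5.19, 4.26 and 4.10 FPKM with YKL at 6 h, against 8.63, 8.24 and 8.87 FPKM with DMSO. The change was -0.80 ± 0.23 as deposited (adjusted p = 0.032) and -0.40 ± 0.14 rescaled (adjusted p = 0.0618). The deposited call held without YKL replicate 1 and ended without any of the other 5 libraries (changes from -0.83 to -0.75, adjusted p = 0.0755 to 0.113). At 24 h CDK6 in MM1S changed by -0.41 ± 0.23 (adjusted p = 0.381) and was called without DMSO replicate 3 (-0.68, 0.0429). CDK4 in MM1S was not called at either time, with -0.66 ± 0.29 at 6 h and -0.48 ± 0.29 at 24 h as deposited. Rescaled, its 6 h change was -0.20 ± 0.13 (adjusted p = 0.304) and its 24 h change -0.23 ± 0.13 (adjusted p = 0.178). Without DMSO replicate 1 the rescaled 24 h change was -0.40 and called (adjusted p = 0.0139).

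CDKN1B, the CDK inhibitor p27, was not called as deposited in either line, while the gene of its target kinase CDK2 fell at 24 h. In H929 at 24 h it was at 34.8, 23.8 and 44.1 FPKM with YKL, against 33.3, 37.3 and 29.2 FPKM with DMSO. In MM1S at 24 h it was at 49.4, 56.7 and 65.4 FPKM with YKL, against 31.0, 81.6 and 37.9 FPKM with DMSO. The groups overlapped in both lines, and the deposited changes were 0.00 (95% interval -0.59 to 0.59, adjusted p = 0.993) in H929 and 0.30 (-0.29 to 0.89, adjusted p = 0.657) in MM1S. After rescaling every YKL library lay above every DMSO library at 24 h in both lines, with 32.4, 35.8 and 34.2 against 19.5, 19.5 and 18.1 rescaled FPKM in H929 and 127, 137 and 147 against 70.3, 102 and 105 in MM1S. CDKN1B rose on that scale by 0.81 ± 0.12 in H929 (adjusted p = 3.65e-05) and 0.58 ± 0.12 in MM1S (adjusted p = 0.00128), also without any 1 library. At 6 h it was not called on either scale. The deposited 6 h changes were -0.12 ± 0.28 in H929 and -0.17 ± 0.28 in MM1S (adjusted p = 0.92 and 0.757), and the rescaled ones 0.07 ± 0.12 and 0.30 ± 0.12 (adjusted p = 0.806 and 0.11). In MM1S at 6 h every YKL library lay below every DMSO library as deposited and above every one after rescaling, so that the direction turned with the scale.

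Ratios within a library do not depend on its scale. The pairs CDKN1B with CDK2 and CDK4 with CDK6 were chosen after their values were seen, and the size of a ratio also depends on gene length, so only its change between groups is read. CDKN1B over CDK2 was 1.93, 1.86 and 1.89 in H929 with YKL at 24 h, against 0.386, 0.485 and 0.368 with DMSO, 4.61-fold higher. In MM1S at 24 h it was 9.98, 9.45 and 11.2 with YKL, against 1.21, 1.43 and 1.66 with DMSO, 7.15-fold higher. At 6 h it was 1.19-fold that of DMSO in H929, where the groups overlapped, and 1.39-fold in MM1S, where they did not. The exact two-sided permutation test gave p = 0.1 at 24 h in both lines and at 6 h in MM1S, the smallest that 3 libraries against 3 allow, and p = 0.5 at 6 h in H929. CDK4 over CDK6 was 1.02, 0.746 and 1.02 in H929 with YKL at 24 h, against 2.07, 2.0 and 2.70 with DMSO, 0.411-fold (exact p = 0.1). In H929 at 6 h the ratio was 0.884-fold that of DMSO (exact p = 0.4). MM1S had 1.19-fold the DMSO ratio at 6 h (exact p = 0.2) and 0.988-fold at 24 h (exact p = 1.0), and the groups overlapped in all 3 cases.

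**Figure D3:**
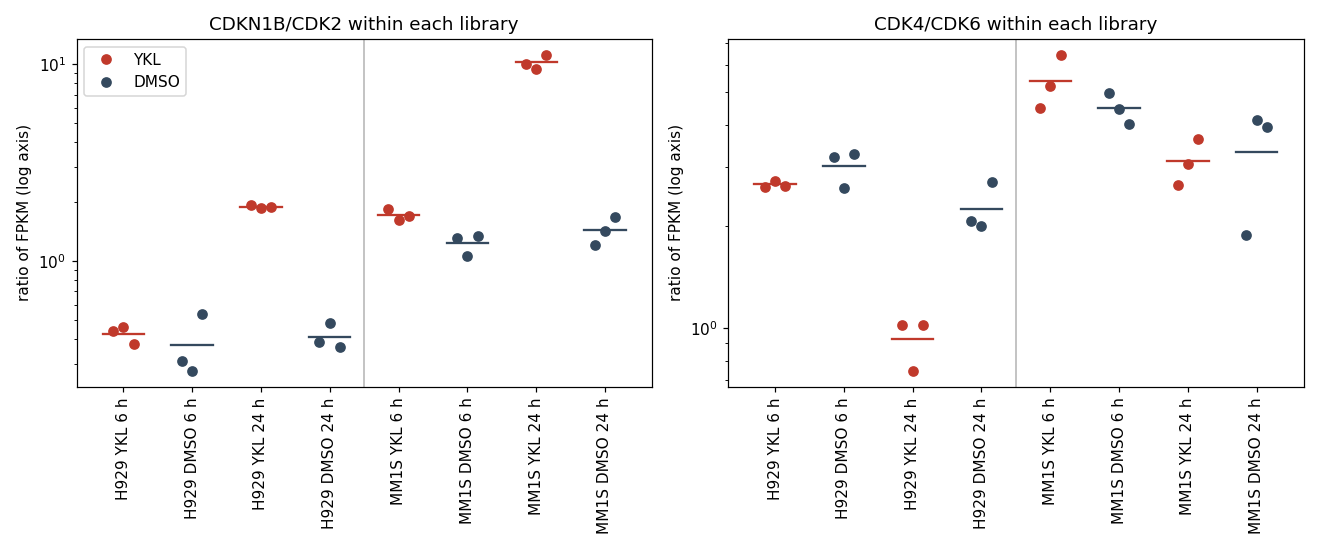
Ratio of FPKM of CDKN1B to CDK2 (left) and of CDK4 to CDK6 (right) in every library, on log axes, with YKL in red and DMSO in dark blue; lines are means of 3. CDKN1B over CDK2 averages 1.89 (H929) and 10.2 (MM1S) with YKL at 24 h, against 0.413 and 1.43 with DMSO, and CDK4 over CDK6 is apart from DMSO in H929 at 24 h.

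Of the 4 members called lower in both lines at 24 h as deposited (CDC25A, CDK2, CCNE1 and CCND3), 3 have a promoter in the RefSeq table (GRCh38.p14), which holds 6 of the 10 members. CCND3, CCNE1 and CDC25A are shown so that the responses above can be read beside the sequence. Each is the stretch of 250 bases before the gene start, 5′ to 3′ on the gene's strand. A single start per gene was taken, the first listed. Libraries of 3′ ends cannot tell which start gave the transcripts measured. Capitals mark GC boxes (GGGCGG) and E2F cores (TTNNCGC, with each N a G or a C), on either strand.
CCND3, chr6:42048689-42048938, minus strand: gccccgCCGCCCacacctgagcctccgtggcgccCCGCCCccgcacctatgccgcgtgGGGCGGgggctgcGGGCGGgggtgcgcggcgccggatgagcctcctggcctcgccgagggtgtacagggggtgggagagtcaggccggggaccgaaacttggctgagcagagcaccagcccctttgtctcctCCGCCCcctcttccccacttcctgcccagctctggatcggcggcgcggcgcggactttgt
CCNE1, chr19:29811741-29811990, plus strand: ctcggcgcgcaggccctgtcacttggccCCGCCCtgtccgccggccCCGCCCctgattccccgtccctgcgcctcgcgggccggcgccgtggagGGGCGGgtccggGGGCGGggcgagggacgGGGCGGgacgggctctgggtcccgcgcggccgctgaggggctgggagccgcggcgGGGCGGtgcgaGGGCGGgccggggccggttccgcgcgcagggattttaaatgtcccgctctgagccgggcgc
CDC25A, chr3:48188418-48188667, minus strand: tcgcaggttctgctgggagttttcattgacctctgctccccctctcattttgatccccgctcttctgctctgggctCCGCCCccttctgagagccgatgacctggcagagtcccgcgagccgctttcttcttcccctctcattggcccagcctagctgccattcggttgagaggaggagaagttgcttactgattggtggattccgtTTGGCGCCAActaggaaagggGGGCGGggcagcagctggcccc
The E2F core was found in CDC25A only, as a pair that overlap on opposite strands at -43 and -40 from the gene start, and in none of the other 5 promoters. It occurs in 11.0% of all 27305 promoters of that length. GC boxes numbered 5 in CCND3, 7 in CCNE1 and 2 in CDC25A, and 3 in CDK4, 3 in CDK6 and 1 in CDKN1B, and 42.3% of all promoters hold at least 1. CCAAT was found 2 times in CDC25A and 2 times in CDKN1B (33.0% of promoters) and CACGTG 3 times in CDK4 (6.49%), counting both strands. TTTGAA and TTCGAA, spellings of the cell cycle homology element, were in none of the 6 promoters (14.6% of all promoters hold 1 or more). These are matches of letters, not bound sites.

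The responses of the lines were compared directly, as the change in H929 minus that in MM1S. At 6 h no member differed on either scale by limma (0 of 10 each, with 2 at an unadjusted p under 0.05 on each, CCND3 and CCNE1), where 0.137% of all genes were higher and 0.0322% lower as deposited and 0.725% and 0.411% rescaled. The difference for CCNE1 was 1.03 (95% interval 0.15 to 1.91, adjusted p = 0.384) as deposited. At 24 h none differed as deposited (0 of 10, 2 at an unadjusted p under 0.05), where 0.290% of all genes were higher and 1.07% lower. Rescaled, 4 were higher in H929 and 1 lower, where 8.02% of all genes were higher and 4.32% lower. CCNE1 (difference 1.64 ± 0.24, adjusted p = 0.000215), CCND3 (1.29 ± 0.22, 0.001) and CDK2 (0.86 ± 0.22, 0.0141) fell less in H929 than in MM1S relative to the median gene, though CCNE1 and CCND3 were not called in H929 itself on that scale. CDK6 was higher by 0.62 ± 0.20 (adjusted p = 0.0493) and CDK4 lower by 0.57 ± 0.18 (adjusted p = 0.0395). Without any 1 of the 12 libraries the rescaled calls of CCNE1, CCND3 and CDK2 were kept. That of CDK4 was kept in 5 of these 12 fits (-0.67 to -0.41, adjusted p = 0.0201 to 0.116) and that of CDK6 in 3 of 12 (0.44 to 0.71, adjusted p = 0.0305 to 0.136). The CDK4 call ended without H929 DMSO 24 h replicate 2 or 3, H929 YKL 24 h replicate 1 or 2, MM1S DMSO 24 h replicate 1 or MM1S YKL 24 h replicate 2 or 3. The CDK6 call held only without H929 YKL 24 h replicate 1 or MM1S DMSO 24 h replicate 2 or 3. CCND2 (rescaled 0.94, adjusted p = 0.0888) was called without MM1S DMSO 24 h replicate 2 (1.22, 0.0251) or 3 (1.13, 0.0463), and CDKN1B without replicate 1 (0.41, 0.0486). CDC25A had a rescaled difference of 0.04 (95% interval -0.48 to 0.56) and CDKN1B one of 0.23 (-0.13 to 0.59). As deposited, the CDK4 difference of -1.14 ± 0.40 (adjusted p = 0.131) was called without H929 YKL 24 h replicate 3 (-1.38, 0.0496) or MM1S DMSO 24 h replicate 2 (-1.55, 0.00467).

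**Figure D4:**
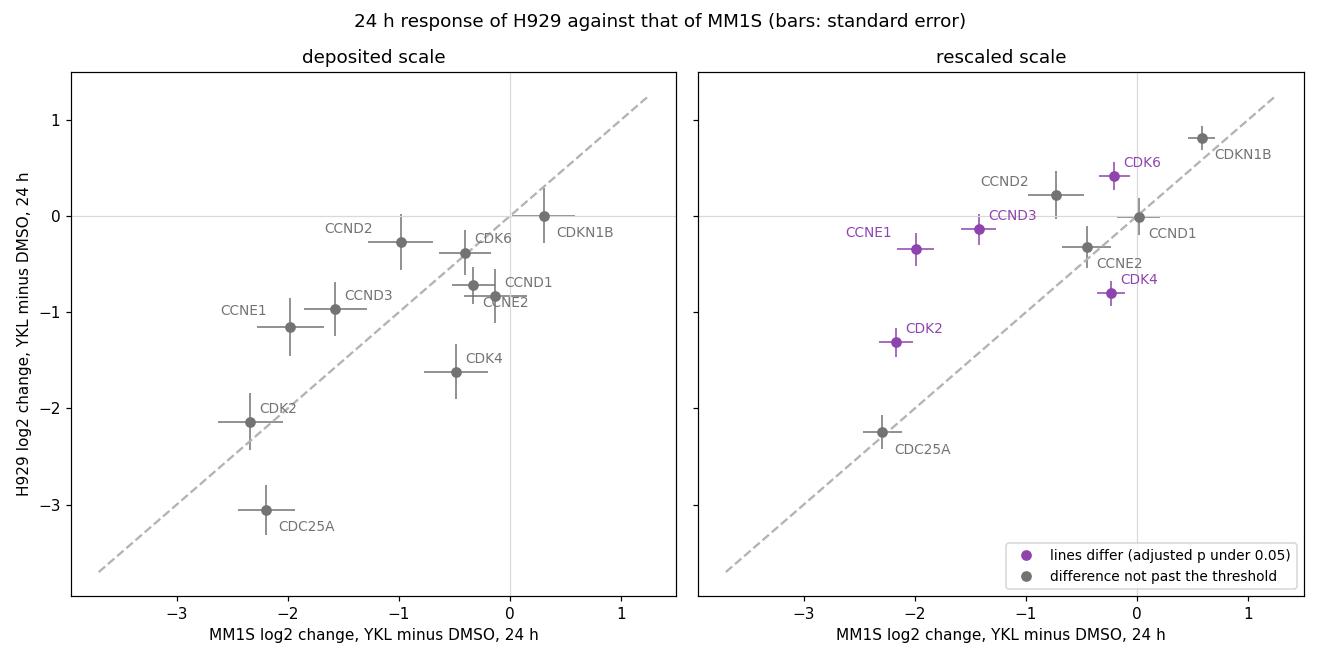
Log2 change at 24 h (YKL minus DMSO) in H929 (y axis) against MM1S (x axis) for the 10 genes, deposited (left) and rescaled (right); bars are standard errors, the dashed line marks equal change, and purple marks an adjusted p under 0.05 for the difference. No gene is purple on the left, and on the right CCNE1, CCND3, CDK2 and CDK6 lie above the line and CDK4 below it.

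The responses at 24 h were set against those at 6 h in the same line. In H929, 2 members responded lower at 24 h and 0 higher as deposited, where 6.18% of all genes were lower and 0.290% higher. They were CDC25A (difference -2.15 ± 0.37, adjusted p = 0.00206) and CDK2 (-1.77 ± 0.42, adjusted p = 0.015). The CDK2 call ended without H929 YKL 6 h replicate 3 (-1.65, 0.0526), and CDK4 (-1.13 ± 0.40, 0.0887) was called without H929 YKL 24 h replicate 3 (-1.38, 0.0336). Rescaled, CDC25A (-1.55 ± 0.25, 0.000379) and CDK2 (-1.14 ± 0.22, 0.00167) were lower and CDKN1B higher (0.74 ± 0.17, 0.00815), where 4.65% of all genes were lower and 5.77% higher. In MM1S none was called as deposited (0 of 10 by limma, 1 at an unadjusted p under 0.05), where 0.0483% of all genes were lower and 0.0322% higher. CDK2 had the lowest p there (-1.70 ± 0.42, adjusted p = 0.0994) and was called without MM1S DMSO 24 h replicate 2 (-1.29, 0.0479) or 3 (-1.94, 0.0356). Rescaled, 4 were lower in MM1S and 0 higher, where 6.28% of all genes were lower and 4.31% higher. They were CDK2 (-1.99 ± 0.22, 5.81e-06), CCNE1 (-1.16 ± 0.24, 0.00312), CDC25A (-1.10 ± 0.25, 0.00684) and CCND3 (-0.81 ± 0.22, 0.0235). Without any 1 of the 12 libraries the rescaled calls were kept, other than that of CCND3, which ended without MM1S YKL 6 h replicate 1 (-0.73, 0.0594), MM1S DMSO 24 h replicate 3 (-0.70, 0.0594) or MM1S YKL 24 h replicate 2 (-0.59, 0.0601).

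The D cyclin transcripts differed between the lines in the DMSO libraries. With DMSO at 6 h CCND1 averaged 49.6 ± 10.7 FPKM in H929 and 1.28 ± 0.30 FPKM in MM1S (SD, n = 3 each). CCND2 averaged 2.11 ± 0.46 FPKM in H929 and 79.6 ± 6.30 FPKM in MM1S. CCND3 was expressed in both, at 110 ± 10.9 FPKM in H929 and 35.4 ± 1.38 FPKM in MM1S. In the DMSO libraries at 6 h, 5 members were higher in H929 than in MM1S as deposited and 2 lower, where 36.4% of all genes were higher and 12.7% lower. The higher ones were CCND1 (4.46 ± 0.28, adjusted p = 7.70e-12), CCND3 (1.60 ± 0.28), CDC25A (1.44 ± 0.26), CDK6 (1.18 ± 0.23) and CDK4 (0.69 ± 0.29), and the lower ones CCND2 (-4.70 ± 0.29, adjusted p = 5.55e-12) and CDKN1B (-1.41 ± 0.28). The CDK4 call (adjusted p = 0.0488) ended when any 1 of the 6 libraries was left out (0.64 to 0.77, adjusted p = 0.0571 to 0.119) and under rescaling (0.02 ± 0.13). Rescaled, the other 4 were higher and the same 2 lower, where 22.6% of all genes were higher and 31.1% lower, and CDK2 was also called lower without H929 DMSO 6 h replicate 2 (-0.53, 0.0051).

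At 24 h, 8 members were higher in H929 with DMSO and 1 (CCND2) lower as deposited, where 67.9% of all genes were higher and 5.36% lower, and the median gene stood 3.47-fold higher in H929. Rescaled, 4 were higher (CCND1, CCND3, CDC25A and CDK6) and 3 lower (CCND2, CDKN1B and CDK2), where 22.4% of all genes were higher and 35.8% lower. CDKN1B was at 33.3, 37.3 and 29.2 FPKM in H929 with DMSO at 24 h, against 31.0, 81.6 and 37.9 FPKM in MM1S. Its deposited difference was -0.46 ± 0.28 (adjusted p = 0.152; without MM1S DMSO 24 h replicate 1 -0.73, adjusted p = 0.0321), and its rescaled one -2.20 ± 0.12 (adjusted p = 7.59e-12). CDK2 turned from 1.30 ± 0.29 as deposited to -0.46 ± 0.15 rescaled (adjusted p = 0.000421 and 0.0157), and the rescaled call ended without H929 DMSO 24 h replicate 2 (-0.35, 0.0862) or MM1S DMSO 24 h replicate 2 (-0.38, 0.0696). CCNE2 was at 0.59 ± 0.19 as deposited (adjusted p = 0.00932) and -0.24 ± 0.22 rescaled, and its deposited call ended without H929 DMSO 24 h replicate 1 (0.48, 0.0517). CCNE2 had passed the filter mostly through DMSO libraries of H929, which limits this call too.

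The DMSO libraries were also compared between times. In H929 no member differed at 24 h from 6 h on either scale (0 of 10 by limma, with 0 at an unadjusted p under 0.05 as deposited and 1 rescaled), where 0.105% of all genes were higher and 0.0403% lower as deposited and 0.644% and 0.378% rescaled. In MM1S 7 members were lower at 24 h and 0 higher as deposited, where 56.0% of all genes were lower and 0.258% higher and the median gene stood at 0.437-fold (exact p = 0.1). They were CCND3, CCNE1, CDK2, CDK4, CDK6, CDC25A and CDKN1B, with changes of -1.42 to -0.83. Rescaled, 0 of 10 were called (3 at an unadjusted p under 0.05), where 5.38% of all genes were lower and 10.3% higher. The deposited calls of CCNE1 and CDK6 ended without MM1S DMSO 24 h replicate 3 (-0.72, 0.0522 and -0.56, 0.0538) and that of CDKN1B without replicate 1 (-0.66, 0.0668). CCND2 (-0.60 ± 0.29, 0.0826) was called without replicate 1 (-0.96, 0.0103). Rescaled, CDKN1B was called without replicate 1 (0.42, 0.016), and CCND2 (0.85, 0.0288) and CDK4 (-0.40, 0.0472) without replicate 2.

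Ordered by mean deposited FPKM over the 8 groups, CCND1 ran from 64.2 ± 7.34 in H929 DMSO 24 h down to 0.806 ± 0.537 in MM1S YKL 6 h, with a gap between the lines and overlap between all neighbours within a line. CCND2 ran from 79.6 ± 6.30 in MM1S DMSO 6 h to 1.34 ± 0.468 in H929 YKL 6 h, and MM1S YKL 6 h and MM1S YKL 24 h were apart from each other. CCND3 ran from 110 ± 10.9 in H929 DMSO 6 h to 4.17 ± 1.26 in MM1S YKL 24 h. CCNE1 ran from 33.9 ± 5.56 in H929 DMSO 24 h to 1.58 ± 0.278, CDK2 from 94.9 ± 32.8 in H929 DMSO 6 h to 5.60 ± 0.571, CDK4 from 62.7 ± 5.67 in H929 DMSO 6 h to 9.51 ± 1.10 and CDC25A from 55.4 ± 14.0 in H929 DMSO 6 h to 1.23 ± 0.332, all lowest in MM1S YKL 24 h. CDK6 was higher in each H929 group (16.8 to 23.4) than in each MM1S group (3.06 to 8.58). CDKN1B was lower in each H929 group (30.6 to 34.2) than in each MM1S group (50.2 to 88.9). The 4 H929 groups overlapped with each other, MM1S DMSO 24 h overlapped with both its neighbours in that order, and MM1S YKL 6 h (68.4 to 86.7) was apart from MM1S YKL 24 h (49.4 to 65.4). MM1S YKL 24 h was the lowest group for CCND3, CCNE1, CCNE2, CDK2, CDK4, CDK6 and CDC25A. It was apart from the next group for CCND3, CCNE1, CDK2, CDK6 and CDC25A. The factors of the median gene in its libraries were 0.388, 0.413 and 0.446, against 0.664 to 2.02 in H929 libraries. The deposited order holds that low scale, and the share of all genes lowest in this group was not counted. For CDK6 the next group was MM1S YKL 6 h, and MM1S YKL 24 h overlapped with its own control, MM1S DMSO 24 h. Rescaled, it stayed the lowest and apart for CCND3 (9.99 rescaled FPKM), CCNE1 (3.78), CDK2 (13.5) and CDC25A (2.94). The lowest rescaled group was H929 YKL 24 h for CDK4 (16.6 ± 1.10, next to 22.8 ± 1.18 in MM1S YKL 24 h), MM1S YKL 6 h for CDK6 (5.42 ± 0.316) and H929 YKL 6 h for CCNE2 (0.373). Rescaled CDK6 was still higher in each H929 group (10.3 to 18.2) than in each MM1S group (5.42 to 8.79), and CDKN1B lower (17.8 to 34.2 in H929 and 77.6 to 137 in MM1S).

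Of 30 other genes of G1/S control, 27 passed the filter (E2F5, CDKN2B and CDK3 did not). As deposited, none was called in H929 at 6 h (0 of 27, 2 at an unadjusted p under 0.05), and 16 in H929 at 24 h, 5 in MM1S at 6 h and 8 in MM1S at 24 h were called lower, with 0 higher in any. Of all genes 1.16%, 35.4%, 10.0% and 6.77% were called lower in these comparisons. The medians of the 27 were -0.21, -0.81, -0.53 and -0.41, beside -0.06, -0.46, -0.29 and -0.12 for all genes. Rescaled, 0, 6, 3 and 10 were lower and 1, 2, 0 and 1 higher, where 4.19%, 12.5%, 7.22% and 13.3% of all genes were lower and 5.10%, 20.8%, 8.25% and 14.4% higher. The rescaled medians were -0.02, -0.03, -0.12 and -0.33, beside 0.07, 0.13, 0.05 and 0.05 for all genes. E2F1, the factor freed by retinoblastoma protein phosphorylation, stood at 11.0, 6.42 and 11.6 FPKM in H929 with YKL at 24 h, against 75.7, 67.2 and 72.3 FPKM with DMSO. In MM1S at 24 h it was at 0.820, 0.881 and 1.57 FPKM with YKL, against 8.84, 20.1 and 9.20 FPKM with DMSO. It fell by 2.81 ± 0.28 in H929 (adjusted p = 2.47e-07) and by 2.64 ± 0.28 in MM1S (adjusted p = 1.68e-06) as deposited, and by 1.99 ± 0.16 and 2.79 ± 0.16 rescaled.

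CKS1B, a CDK-binding subunit that helps degrade p27, averaged 335 ± 129 FPKM in H929 with YKL at 24 h and 2349 ± 310 FPKM with DMSO, a change of -2.88 ± 0.32 as deposited and -2.04 ± 0.13 rescaled. Also among the 4 with the lowest p in H929 at 24 h were CCNA2, the S phase cyclin (-2.28 ± 0.28, rescaled -1.47 ± 0.15), and E2F2 (-1.74 ± 0.27, rescaled -0.93 ± 0.09). In MM1S at 24 h those were, after E2F1, CCNA2 (-1.78 ± 0.28, rescaled -1.76 ± 0.15), the E2F partner TFDP1 (-1.50 ± 0.27, rescaled -1.40 ± 0.20) and WEE1, the kinase that opposes CDC25 phosphatases (-1.35 ± 0.26, rescaled -1.42 ± 0.16). In MM1S at 6 h they were MNAT1, a subunit of the CDK7 complex (-1.14 ± 0.28, adjusted p = 0.0113), WEE1 (-0.99 ± 0.26), E2F1 (-0.98 ± 0.28) and MYC (-1.18 ± 0.34). Rescaled, WEE1 (-0.58 ± 0.16) and E2F1 (-0.54 ± 0.16) were called, and MNAT1 (-0.78 ± 0.32, adjusted p = 0.101) and MYC (-0.74 ± 0.25, adjusted p = 0.0545) were not. CDK7 and RB1, the retinoblastoma gene, were not called in any of the 4 comparisons of YKL with DMSO on either scale. CDKN1A (p21) averaged 162 ± 31.5 FPKM in H929 with YKL at 6 h and 83.2 ± 11.8 FPKM with DMSO, not called as deposited (0.94 ± 0.27, adjusted p = 0.0667) and higher rescaled (1.13 ± 0.14, adjusted p = 5.47e-05). It was lower in MM1S at 24 h rescaled (-0.49 ± 0.14, adjusted p = 0.0141).

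Genes with the most similar pattern were named by Pearson correlation of rescaled log2(FPKM + 1) over the 24 libraries among 11882 named genes, as a description, since the libraries share 2 lines and the treatment. For CDK2 they were TYMS (0.958), TCF19 and NUSAP1, and for CDC25A PSAT1 (0.968), DSCC1 and SKA1. For CCNE1 they were RMI2 (0.886), PPP2R1B and PIGU, for CCNE2 GPR180 (0.759), E2F4 and ORC2, and for CDK4 ENOPH1 (0.916), POLR2H and MRPL11. Of the D cyclins and p27, CCND1 was nearest HOOK3 (0.993), DLL3 and SLC4A11, CCND2 nearest MAPK13 (0.993), SOX2 and BSPRY, and CDKN1B nearest PBXIP1 (0.995), SCNN1B and C5orf56. CCND3 was nearest C12orf75 (0.978), SMCO4 and HMGB3, and CDK6 nearest DUSP6 (0.958), EMILIN3 and CDH2.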

How the data were processed

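Per the labels' protocols, QuantSeq 3′ libraries were made from total RNA. The submitters' processing notes name HISAT2, Cuffnorm and hg19, without versions. Each library has its own table of FPKM, as the authors deposited it: 26341 entries (26249 genes and 92 spike-ins). A scaling to spike-ins is not given in the sources used here. No value was 0, no 2 libraries were identical (0 pairs) and no per-sample column was unused (0). Division by gene length is not suited to 3′ reads but is the same in every library. Adding 1 FPKM understates changes of low genes.

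limma 3.58.1 (R 4.3.3, limma-trend, two-sided) was run on log2(FPKM + 1) over 12418 genes in 1 fit of 8 group means, for 12 comparisons. It was tested on simulated data, drawn for each gene separately. No scale was shared within a simulated library, so that test cannot tell how shifts of whole libraries affect the calls. Rescaling used median-of-ratios factors over the 6014 genes whose geometric mean reached 5 FPKM. All 10 members are named. Of other G1/S genes the 4 called with the smallest p per comparison of YKL with DMSO are named, and always CDK7, E2F1, RB1 and CDKN1A. Members and lists were chosen with earlier results of these data known. Same-numbered replicates did not deviate together (correlations of -0.11 to 0.18 as deposited and -0.13 to 0.19 rescaled), so numbers were not used as pairs. Alternatives were rescaling, a pseudocount of 0.1 FPKM, no filter, the replicate block, fits of only the groups compared and leaving out libraries.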

Additional observations from a re-analysis of the deposited data

Results flagged for a closer look

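These are differences between responses that passed limma's test of the difference itself. Rescaled, those of CDK4 and CDK6 between lines and of CCND3 in MM1S ended when some single libraries were left out, as given in the results, and the other rescaled ones were kept without any 1 library. As deposited, that of CDK2 in H929 ended without H929 YKL 6 h replicate 3 (-1.65, adjusted p = 0.0526). Groups of 3 libraries were too small to be tested for outlying samples. In H929 the response to YKL was lower at 24 h than at 6 h for CDC25A by -2.15 as deposited and -1.55 rescaled, and for CDK2 by -1.77 and -1.14. CDKN1B was higher at 24 h than at 6 h in H929 by 0.74 rescaled. In MM1S the rescaled 24 h response was lower than that at 6 h for CDK2 (-1.99), CCNE1 (-1.16), CDC25A (-1.10) and CCND3 (-0.81). Between lines at 24 h, H929 minus MM1S, the rescaled differences were 1.64 for CCNE1, 1.29 for CCND3, 0.86 for CDK2, 0.62 for CDK6 and -0.57 for CDK4.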

How the results depend on the processing

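Rescaling gave 1 member called in H929 at 6 h (0 as deposited), 3 in MM1S at 6 h (5), 5 for the line difference at 24 h (0), 4 for the time difference in MM1S (0) and 0 for DMSO 24 h against 6 h in MM1S (7). Of the other G1/S genes it gave 1 in H929 at 6 h (0), 8 in H929 at 24 h (16) and 3 in MM1S at 6 h (5). With no filter 3 members and 2 other G1/S genes were called in MM1S at 6 h, and 3 of the other genes with a pseudocount of 0.1 FPKM. Fits of only the groups compared gave 3 for DMSO 24 h against 6 h in MM1S. Without the 2 libraries of scattered spike-ins (MM1S YKL 6 h replicate 2 and MM1S DMSO 24 h replicate 1, chosen after seeing the data) 1 member, CDC25A, was called in MM1S at 6 h. Leaving out each library in turn gave 0 to 1 members in H929 at 6 h, 5 to 7 in H929 at 24 h, 1 to 4 in MM1S at 6 h, 4 to 6 in MM1S at 24 h, 0 to 1 for the line difference at 24 h, 1 to 3 for the time difference in H929 and 0 to 1 in MM1S. A pseudocount of 0.1 FPKM, no filter and a fit of only the groups compared ended the call of CCND1 in H929 at 24 h (adjusted p = 0.0929, 0.0501 and 0.0802) and of CCND2 in MM1S at 24 h (0.0706, 0.0857 and 0.238), and the first 2 of them that of CCND2 in MM1S at 6 h (0.0618 and 0.0633). No filter also ended that of CDK6 in MM1S at 6 h (0.0522). Directions turned under rescaling for CDK6 in H929 at 24 h (0.41), for H929 against MM1S with DMSO at 24 h in CCNE2 (-0.24) and CDK2 (-0.46), and for DMSO 24 h against 6 h in MM1S in CCNE1 (0.002), CDK2 (0.025), CDK6 (0.19), CDC25A (0.10) and CDKN1B (0.23). The uncalled change of CDKN1B in MM1S at 6 h also turned (-0.17 as deposited, 0.30 rescaled). Rescaling moves every gene by the library's own factor, which is how these calls and directions changed. With the replicate number as a block, 0 and 7 members were called in H929 (6 h, then 24 h; 0 and 7 without the block) and 5 and 4 in MM1S (5 and 5 without), losing CCND2 in MM1S at 24 h (adjusted p = 0.0595) and, with DMSO at 6 h, CDK4 between the lines (adjusted p = 0.0549). It changed no other member call. Depth is unknown, so what it limits cannot be given.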
